A study of Homo sapiens with 6 samples.

Results

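Collagens are the structural proteins of the extracellular matrix, and each human collagen chain has a gene of its own. The chains of the family were followed in U-2 OS cells, a human osteosarcoma line, by taking every protein-coding gene whose symbol is COL, a number, A and a number. This gave 44 collagen genes of 21447 genes in the files. RNA of asynchronously growing U-2 OS cells, cultured in DMEM with serum and left untreated, was compared with RNA of such cells 24 h after 4 Gy of ionizing radiation (IR), with 3 libraries in each group. The comparison asks which genes change their transcript level after IR-induced DNA damage. All 6 libraries came from the same line, and the study describes the 3 samples of a group as independent, without details of the cultures. P values measure the spread between these samples.

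Collagen chains wind around each other in threes into a rigid helix, and the chain composition and the domains that flank the helix decide what the trimer builds. Fibrillar collagens form the cross-striated fibrils of bone, skin and cartilage, fibril-associated collagens (FACITs) sit on the surface of those fibrils, type IV collagen forms the sheet of basement membranes, type VI collagen forms beaded filaments around cells, type VII collagen forms the anchoring fibrils of skin, and transmembrane collagens span the plasma membrane. Type I collagen, made of COL1A1 and COL1A2 chains, is the main protein of bone matrix and a classical product of osteoblasts. In RNA from a whole culture, fewer cells of a type and less RNA per cell cannot be told apart.

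The deposited values are reads assigned to transcripts, estimated counts, summed here per gene. A library held between 18573309 and 22953834 estimated counts, except IR replicate 3 with 45308792. The mean content of G and C of the annotated transcripts, weighted by counts, was also highest in that library. Counts scaled to a common library size (CPM, with library sizes adjusted by the trimmed mean of M-values) were used for comparisons between libraries, and TPM, which also divides by transcript length, for levels of different genes. Values after ± are the SD of 3 libraries for levels and the standard error for log2 fold changes, which are IR against untreated. Of the markers of the osteoblast lineage, 4 of 9 reached 1 TPM, among them SPP1 and RUNX2, while SP7, IBSP and DMP1 were below 0.1 TPM, with a summed level of 177 to 186 TPM in untreated and 136 to 200 TPM in IR libraries. ALPL was higher (1.09 ± 0.23, edgeR, adjusted P = 0.00716) and RUNX2 lower (-0.36 ± 0.10, edgeR, adjusted P = 0.0250) after IR, and their part in the collagen results was not tested. Chondrocyte markers reached 1 TPM for 3 of 5 genes and epithelial markers for 4 of 5, whereas 1 of 5 endothelial markers did, with CDH5 and KDR below 0.1 TPM.

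U-2 OS cells expressed 25 of the 44 collagen genes, defined as a mean of at least 1 TPM in a group. A further 13 genes were low, between 0.1 and 1 TPM, and 6 were below 0.1 TPM. COL1A1 (ENSG00000108821, chr17:50184101-50201632, minus strand, with positions throughout on GRCh38) was the most abundant in both groups, with 579, 641 and 443 TPM in the untreated libraries and 538, 488 and 595 TPM in the IR libraries. It held between 35.6% and 45.0% of all collagen TPM of a library. COL1A2 (ENSG00000164692, chr7:94394895-94431227, plus strand), which encodes the partner chain of type I collagen, was listed at 0.367, 0.688 and 0.183 TPM in the untreated libraries and 0.810, 0.466 and 0.896 TPM in the IR libraries, so that COL1A1 exceeded it between 664-fold and 2416-fold per length. The groups overlapped for both genes.

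After COL1A1, the highest collagen levels belonged to COL12A1, a FACIT of type I fibrils, with 159.8 ± 15.4 TPM without and 158 ± 12.4 TPM after IR, and to COL4A2, a basement membrane chain, with 128 ± 7.24 TPM without and 172 ± 27.1 TPM after IR. COL16A1, another FACIT, had 95.9 ± 11.7 TPM without and 110.1 ± 2.64 TPM after IR, and COL4A1, the partner of COL4A2, had 72.2 ± 4.45 TPM without and 84.5 ± 5.22 TPM after IR. In untreated cells COL12A1 and COL4A2 were separated by more than their spread, whereas in IR cells they were not. COL3A1, COL6A2, COL11A1, COL5A2, COL6A1, COL5A1, COL8A1, COL13A1 and COL6A3 followed with untreated means between 11.7 and 44.2 TPM, and the other 11 expressed genes lay between 0.782 and 7.02 TPM. All collagen genes together made up 0.129%, 0.143% and 0.124% of TPM in untreated and 0.145%, 0.133% and 0.156% in IR libraries, which overlapped (exact two-sided permutation test, P = 0.2, n = 3 against 3). Without COL1A1 the sums were 0.0766 ± 0.00462% and 0.0904 ± 0.00597%, and every IR library lay above every untreated library (exact permutation test, P = 0.1, the smallest that 3 against 3 libraries can give).

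**Figure D1:**
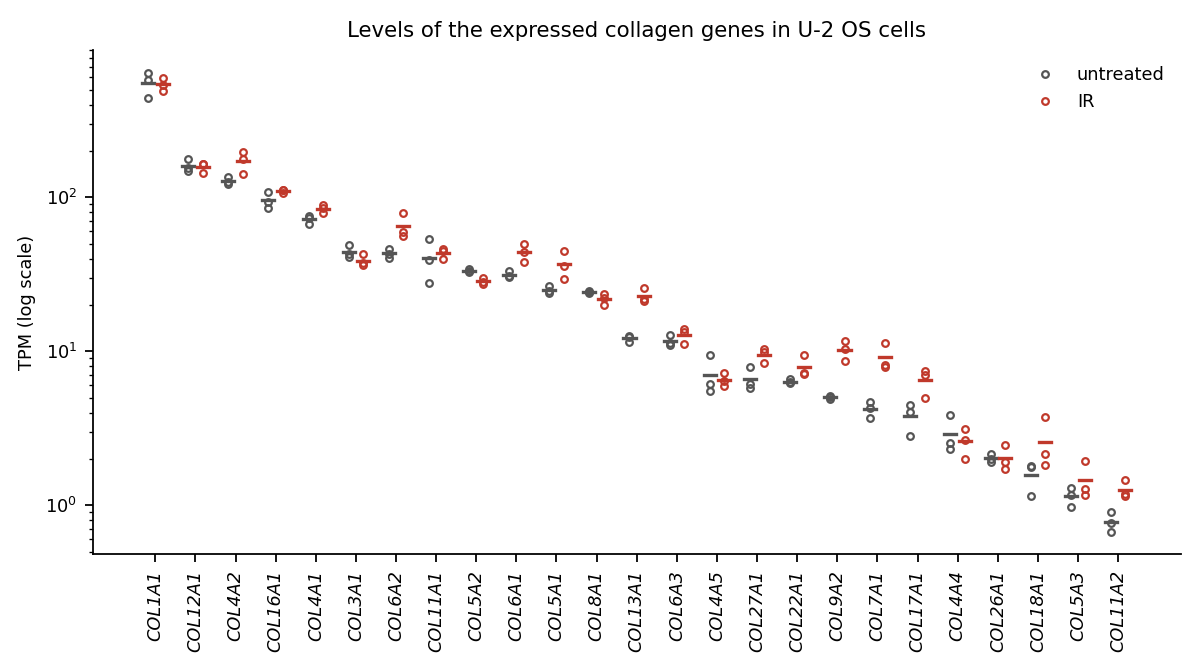
Level of each of the 25 expressed collagen genes in TPM on a log axis, ordered by the untreated mean, with open circles for the 3 untreated (grey) and 3 IR (red) libraries and bars for group means. COL1A1 lies above all other collagens in every library, and the red circles of genes such as COL13A1, COL9A2 and COL7A1 lie above the grey circles.

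Of the 44 collagen genes, 33 passed the filter on low counts and entered the edgeR quasi-likelihood test with Benjamini–Hochberg adjustment over all 14323 tested genes, namely the 25 expressed genes and 8 low ones. At an adjusted P under 0.05, 14 collagen genes were higher after IR, which is 42.4% of the 33, against 15.5% of all genes. Only 2, or 6.06%, were lower, against 14.5% of all genes. In CPM, every IR library lay above every untreated library for 16 collagen genes (48.5%, against 23.8% of all genes) and below for 4 (12.1%, against 23.3%), and the groups overlapped for 13. The median log2 fold change of the 33 genes was 0.31, while that of all tested genes was 0.01. The higher genes came from most classes, with 3 of 10 tested fibrillar genes, 4 of 7 FACITs, 1 of 6 network-forming genes, 2 of 3 type VI genes, the only anchoring fibril gene, both tested transmembrane genes and 1 of 2 multiplexins. Of the 14 higher calls, 13 were kept whichever of the 6 libraries was left out, COL19A1 being the exception, while each of the 2 lower calls was lost without at least 1 library. Without IR replicate 3, 13 collagen genes were higher and 3 were lower, and the share of all genes in that fit was not computed.

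**Figure D2:**
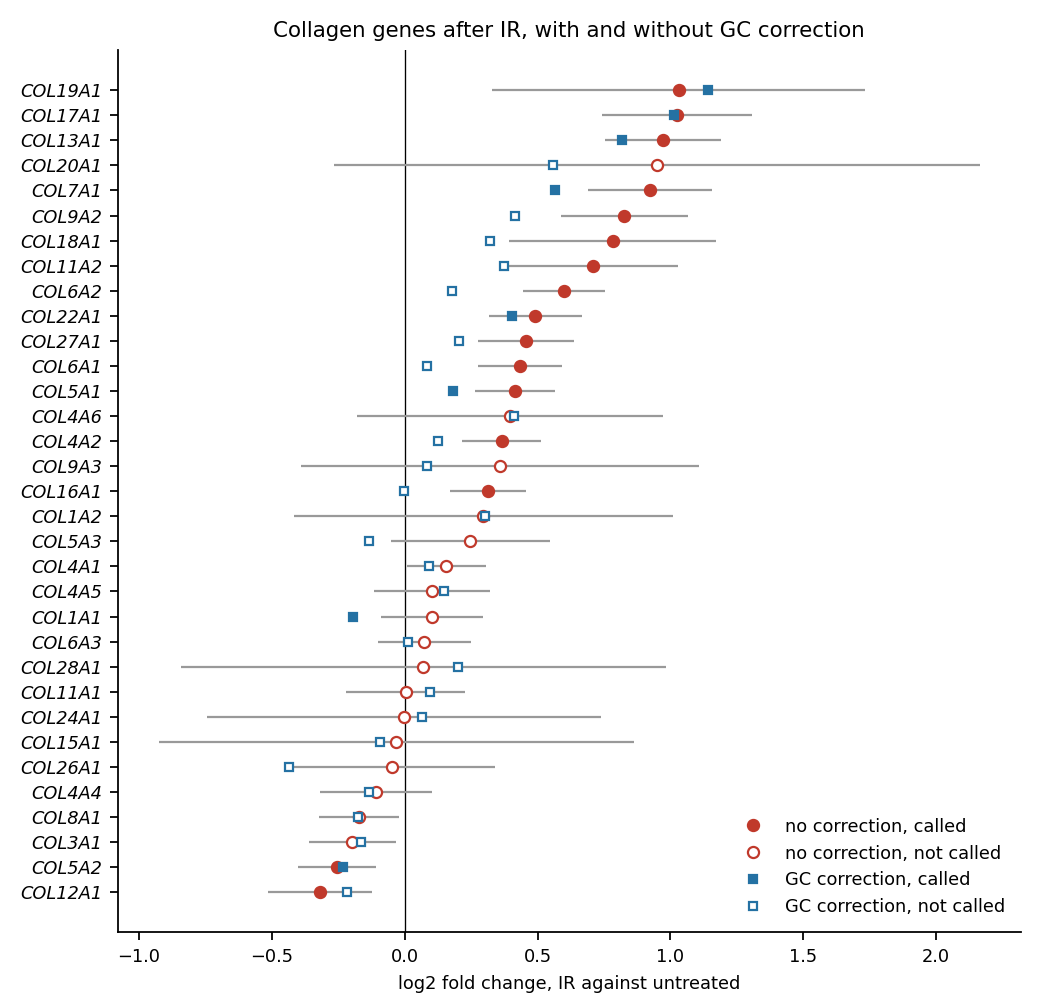
Log2 fold change of IR against untreated for the 33 tested collagen genes, without (red circles, with grey lines for the 95% confidence interval) and with (blue squares) correction for GC content, filled where the edgeR adjusted P was under 0.05. The genes lie mostly to the right of 0, with 14 filled circles there and 2 on the left, and with 6 filled squares on the right.

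Collagen transcripts are rich in G and C, as are the codons for the glycine and proline of the helix, and the libraries differed in this property. The mean GC content weighted by counts was 48.6%, 48.6% and 48.4% in untreated and 48.9%, 49.0% and 49.6% in IR libraries. Among all tested genes, 45.1% were higher in the eighth of highest GC content, which starts at 60.3%, and 3.63% in the eighth of lowest GC content. The median GC content was 54.5% for the tested collagen genes and 48.6% for all tested genes. Of 15 collagen genes with at least 60% GC, 10 were higher and 0 were lower, while of 18 genes under 60% GC, 4 were higher and 2 were lower. In the highest eighth, 0.614% of all tested genes were lower. In the eighths below it, the share of all genes rose with GC content from 3.63% to 27.6% for higher and fell from 32.7% to 3.02% for lower. Across the 33 collagen genes the fold change and the GC content had a Pearson r of 0.456, and across all tested genes 0.440, given as a description since genes of the same libraries are not independent. When the dependence of each library on GC content was removed, 6 collagen genes were higher (18.2%, against 11.7% of all genes) and 2 were lower (6.06%, against 12.6%), and the median log2 fold change was 0.12. The 6 were COL17A1, COL13A1, COL7A1, COL22A1, COL5A1 and COL19A1, and the 2 were COL5A2 and COL1A1. With an offset for the effective length of each gene in each library, 10 were higher (30.3%, against 5.84% of all genes) and 0 were lower (against 6.11%). The 4 higher calls lost there were COL16A1, COL18A1, COL19A1 and COL22A1, and the 2 lower ones were COL5A2 and COL12A1. COL17A1, COL13A1, COL7A1 and COL5A1 were higher in all 3 fits. How far the GC trend accounts for the other calls was not tested.

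**Figure D3:**
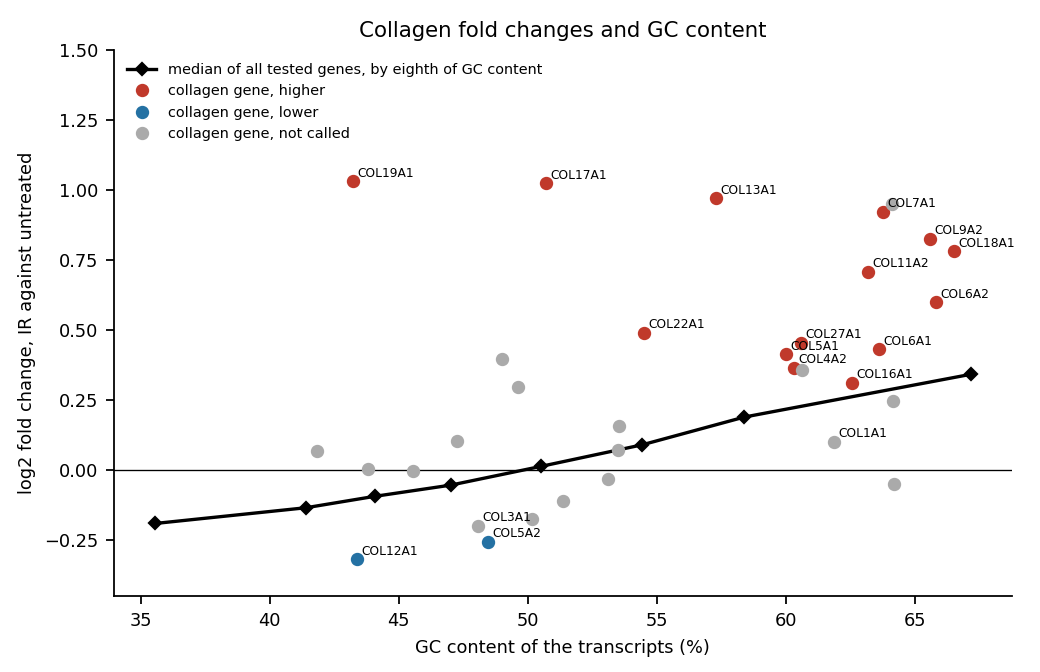
Log2 fold change against GC content for the 33 tested collagen genes, coloured by call, with the median of all tested genes in each eighth of GC content (black line, plotted at the middle of each GC range). The median rises from -0.19 to 0.34 with GC content, and COL17A1, COL13A1, COL22A1 and COL19A1 lie far above it at a GC content under 60%.

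Promoters are shown for the called genes of lowest P with an entry in the RefSeq promoter set (GRCh38.p14), as the 250 bases before the annotated start, 5′ to 3′ on the strand of the gene. Of the 44 genes, 32 had an entry, and COL1A1, COL1A2, COL2A1, COL3A1, COL5A2, COL6A1, COL6A5, COL8A1, COL9A3, COL14A1, COL20A1 and COL22A1 had none. Capitals mark matches on either strand to 3 motifs. The GC box, the site of Sp1 family factors, is GGGCGG or, on the opposite strand, reads as CCGCCC. The CCAAT box, the site of NF-Y, is CCAAT or, on the opposite strand, reads as ATTGG. The TATA box is TATAAA or, on the opposite strand, reads as TTTATA. A GC box occurred in 18 of 32 collagen promoters (56.2%) and in 42.3% of all 27305 promoters, a CCAAT box in 9 (28.1%) against 33.0%, and a TATA box in 5 (15.6%) against 11.1%. Among the 12 higher genes with an entry, 8 held a GC box, 2 a CCAAT box and 4 a TATA box. The p53 decamer consensus was found in 1 collagen promoter, that of COL17A1, and in 5.53% of all promoters.

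Among the fibrillar genes, COL1A1 had 2962, 3146 and 2683 CPM in the untreated libraries and 2994, 2930.4 and 3509 CPM in the IR libraries. Its log2 fold change was 0.10 ± 0.09 with a 95% confidence interval of -0.09 to 0.29 (edgeR, adjusted P = 0.399), the groups overlapped, and with GC correction it was -0.20 (adjusted P = 0.0323). Part of the COL1A1 level in TPM came from the short retained-intron transcript COL1A1-204, with 159, 184 and 67.7 TPM in untreated and 115, 98.3 and 2.40 TPM in IR libraries, which held at most 3.34% of the counts of the gene. COL3A1, whose chain forms the fibrils of distensible tissues, had 192, 184 and 204 CPM in the untreated libraries and 159, 164 and 182 CPM in the IR libraries. All IR libraries lay below all untreated ones, with a log2 fold change of -0.20 ± 0.07 that missed the threshold (edgeR, adjusted P = 0.0655, 0.0384 with DESeq2 and 0.0112 without IR replicate 3). For COL3A1 the value was -0.17 with GC correction (edgeR, adjusted P = 0.116) and -0.14 with the length offset (edgeR, adjusted P = 0.360). The edgeR adjusted P was 0.0835 with the replicate number as a block, and reached 0.191 when single libraries were left out.

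Type V chains control the diameter of type I fibrils, and COL5A1 was called higher and COL5A2 lower. COL5A1 (ENSG00000130635, chr9:134641803-134844843, plus strand) had 181, 199 and 181 CPM in the untreated libraries and 247, 238 and 262 CPM in the IR libraries. It rose by 0.42 ± 0.07 on the log2 scale (edgeR, adjusted P = 0.00228), without overlap between groups, and by 0.18 with GC correction (adjusted P = 0.0449). COL5A2 (ENSG00000204262, chr2:189031898-189225312, minus strand) had 181, 192 and 197 CPM in the untreated libraries and 165, 163 and 150.0 CPM in the IR libraries. It was lower in all IR libraries, with a log2 fold change of -0.26 ± 0.07 (edgeR, adjusted P = 0.0173) and of -0.23 with GC correction (adjusted P = 0.0163). Its call was lost without untreated replicate 2 (adjusted P = 0.0670) or untreated replicate 3 (adjusted P = 0.0582), with the length offset (-0.17, adjusted P = 0.200), and with the replicate number as a block (adjusted P = 0.0503). COL5A3, at 1.15 ± 0.161 TPM without and 1.46 ± 0.415 TPM after IR, had 7.85, 9.45 and 10.2 CPM in the untreated libraries and 10.2, 10.1 and 12.2 CPM in the IR libraries. It overlapped between groups and had a log2 fold change of 0.25 ± 0.13 (edgeR, adjusted P = 0.189) and of -0.14 with GC correction.

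Type XI chains are the minor partners of cartilage fibrils and closely related to type V. COL11A1 had 120.4, 133 and 143 CPM in the untreated libraries and 144, 141 and 113 CPM in the IR libraries, with overlapping groups and a log2 fold change of 0.00 ± 0.10 (edgeR, adjusted P = 0.986, 95% confidence interval -0.22 to 0.23). COL11A2 (ENSG00000204248, chr6:33162681-33192499, minus strand), at a much lower level, had 4.61, 4.99 and 5.67 CPM in the untreated libraries and 8.37, 9.09 and 7.64 CPM in the IR libraries. It rose by 0.71 ± 0.14 without overlap (edgeR, adjusted P = 0.00578), and had 0.37 with GC correction (adjusted P = 0.130). COL27A1 (ENSG00000196739, chr9:114155537-114312511, plus strand), a fibrillar collagen of developing cartilage, had 38.3, 44.1 and 40.3 CPM in the untreated libraries and 59.1, 58.0 and 51.7 CPM in the IR libraries. It rose by 0.46 ± 0.08 without overlap (edgeR, adjusted P = 0.00332), and had 0.21 with GC correction (adjusted P = 0.165). Beside these genes, the 5 chondrocyte markers summed to 46.0 to 52.8 TPM in untreated and to 36.4 to 41.8 TPM in IR libraries, with SOX9 (-0.58 ± 0.09, edgeR, adjusted P = 0.00177) and ACAN (-0.52 ± 0.15, adjusted P = 0.0253) lower and no marker higher, and their part was not tested. With the length offset ACAN was not called (adjusted P = 0.655), nor was RUNX2 (adjusted P = 0.692).

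Of the FACITs, COL12A1 (ENSG00000111799, chr6:75084326-75206267, minus strand) was lower after IR and COL9A2, COL16A1, COL19A1 and COL22A1 were higher. COL12A1 had 756, 827 and 749.7 CPM in the untreated libraries and 699, 619 and 553 CPM in the IR libraries. It fell in all IR libraries, with a log2 fold change of -0.32 ± 0.09 (edgeR, adjusted P = 0.0216), which was -0.22 with GC correction (adjusted P = 0.0529) and 0.04 with the length offset (adjusted P = 0.858). The call was also lost without untreated replicate 1, untreated replicate 2 or IR replicate 2, with adjusted P = 0.0565, 0.0916 and 0.0602. COL16A1 (ENSG00000084636, chr1:31652263-31704319, minus strand), found near cells and on microfibrils, had 219, 237 and 244 CPM in the untreated libraries and 284, 293 and 292 CPM in the IR libraries. It rose by 0.31 ± 0.06 without overlap (edgeR, adjusted P = 0.00626), but the value was -0.0036 with GC correction (adjusted P = 0.979) and 0.25 with the length offset (adjusted P = 0.168), and neither was called.

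COL9A2 (ENSG00000049089, chr1:40300489-40317813, minus strand), a chain of the type IX collagen that decorates cartilage fibrils, had 11.8, 12.8 and 14.6 CPM in the untreated libraries and 23.9, 25.0 and 20.9 CPM in the IR libraries. It rose by 0.83 ± 0.11 (edgeR, adjusted P = 0.000869), with every IR library above every untreated library, and by 0.42 with GC correction, which missed the threshold (adjusted P = 0.0635). The other type IX genes were low, COL9A3 with 0.705 ± 0.0781 TPM without and 0.987 ± 0.247 TPM after IR and COL9A1 below 0.1 TPM. The COL9A2 promoter (chr1:40317287-40317536, minus strand) is 71.6% G and C and holds 3 GC boxes, of which 2 overlap. This window is set by the RefSeq start and lies inside the GENCODE positions of the gene given above.
COL9A2: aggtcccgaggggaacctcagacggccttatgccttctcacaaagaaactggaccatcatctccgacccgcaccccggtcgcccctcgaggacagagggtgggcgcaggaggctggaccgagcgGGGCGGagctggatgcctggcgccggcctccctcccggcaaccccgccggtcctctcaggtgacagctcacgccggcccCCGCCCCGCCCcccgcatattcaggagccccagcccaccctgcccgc

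COL22A1 (ENSG00000169436, chr8:138588235-138914041, minus strand), a FACIT of the junction between muscle and tendon, had 19.5, 22.3 and 21.7 CPM in the untreated libraries and 30.0, 29.3 and 30.0 CPM in the IR libraries. It rose by 0.49 ± 0.08 without overlap (edgeR, adjusted P = 0.00209), and by 0.40 with GC correction (adjusted P = 0.00475), whereas the call was lost with the length offset (0.37, adjusted P = 0.0776). COL19A1 (ENSG00000082293, chr6:69866556-70212468, plus strand), a collagen of basement membrane zones, was among the low genes, with 11, 10 and 9 estimated counts in untreated and 23, 20 and 40 in IR libraries. It went from 0.604, 0.446 and 0.440 CPM to 1.11, 1.09 and 0.886 CPM, a log2 fold change of 1.03 ± 0.32 (edgeR, adjusted P = 0.0330), and the groups did not overlap. With GC correction the value was 1.14 (adjusted P = 0.0238), and the call was lost with the length offset (adjusted P = 0.121), with DESeq2 (adjusted P = 0.122) and with the replicate number as a block (adjusted P = 0.0584). It was also lost when any single library was left out, with adjusted P between 0.0590 and 0.111, and exons of COL19A1 overlap those of LMBRD1 on the other strand.

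Type IV chains build the basement membrane, and their genes lie in head-to-head pairs. COL4A1 (ENSG00000187498, chr13:110148963-110307157, minus strand) had 417, 435 and 384 CPM in the untreated libraries and 470.5, 459 and 447 CPM in the IR libraries. All IR libraries were above all untreated ones, but the log2 fold change of 0.16 ± 0.07 missed the threshold (edgeR, adjusted P = 0.101). COL4A2 (ENSG00000134871, chr13:110305812-110513209, plus strand) had 671, 697 and 622 CPM in the untreated libraries and 841, 831 and 892 CPM in the IR libraries. It rose by 0.37 ± 0.07 without overlap (edgeR, adjusted P = 0.00366), and had 0.12 with GC correction (adjusted P = 0.132). Of its counts, the coding transcript COL4A2-201 held 92.3%, 92.0% and 93.1% in untreated and 88.3%, 90.1% and 81.5% in IR libraries. The retained-intron transcript COL4A2-216 held 5.39%, 5.90% and 3.90% in untreated and 8.75%, 7.76% and 17.0% in IR libraries. Its share was not called (edgeR diffSpliceDGE, adjusted P = 0.900). COL4A1 has a GC content of 53.5% and COL4A2 of 60.3%.

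The RefSeq starts of COL4A1 and COL4A2 are 127 bases apart, whereas those of COL4A4 and COL4A3 are 419 and those of COL4A6 and COL4A5 are 380 bases apart. The gene positions given above are those of GENCODE, where COL4A2 begins at 110305812 instead of the RefSeq start at 110307284. The whole stretch between the RefSeq starts of COL4A1, which is read to the left, and COL4A2, which is read to the right (chr13:110307158-110307283, plus strand), is shown because it is the promoter that the pair shares. It is 80.2% G and C, with 1 CCAAT box and 1 GC box.
COL4A1 to COL4A2: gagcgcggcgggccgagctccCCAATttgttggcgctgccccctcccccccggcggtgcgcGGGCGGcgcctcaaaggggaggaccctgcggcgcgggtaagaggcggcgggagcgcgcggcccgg

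Within the other pairs, a single gene was expressed at 1 TPM or more. COL4A4, a chain of the kidney basement membrane, had 17.7, 18.7 and 18.6 CPM in the untreated libraries and 18.4, 17.5 and 15.3 CPM in the IR libraries, and COL4A3 across the shared start was low, with at most 26 counts in a library. COL4A5 had 16.0, 16.4 and 17.7 CPM in the untreated libraries and 18.6, 15.8 and 19.2 CPM in the IR libraries, and COL4A6 was low, with 0.425 ± 0.116 TPM without and 0.381 ± 0.105 TPM after IR. COL4A4 had a log2 fold change of -0.11 ± 0.09 (edgeR, adjusted P = 0.409) and COL4A5 one of 0.10 ± 0.10 (edgeR, adjusted P = 0.450), and both overlapped between groups. COL8A1, a short network-forming chain of vessel walls, had 60.6, 66.4 and 60.7 CPM in the untreated libraries and 56.2, 56.6 and 53.8 CPM in the IR libraries. The IR libraries lay below the untreated ones, with a log2 fold change of -0.17 ± 0.07 (edgeR, adjusted P = 0.0800).

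Type VI collagen is assembled from COL6A1, COL6A2 and COL6A3 chains, and all 3 genes were expressed. COL6A1 (ENSG00000142156, chr21:45981770-46005050, plus strand) had 122, 139 and 122 CPM in the untreated libraries and 176, 167 and 176 CPM in the IR libraries. It rose by 0.43 ± 0.07 (edgeR, adjusted P = 0.00228). COL6A2 (ENSG00000142173, chr21:46098112-46132848, plus strand) had 126, 137 and 136 CPM in the untreated libraries and 196, 194 and 216 CPM in the IR libraries. It rose by 0.60 ± 0.07 (edgeR, adjusted P = 0.000595), and the groups overlapped for neither gene. COL6A3 had 91.1, 103 and 88.6 CPM in the untreated libraries and 107, 96.0 and 95.5 CPM in the IR libraries, with overlapping groups and a log2 fold change of 0.07 ± 0.08 (edgeR, adjusted P = 0.508). With GC correction the values were 0.08 for COL6A1, 0.18 for COL6A2 and 0.01 for COL6A3, none of them past the threshold (adjusted P = 0.439, 0.0583 and 0.938). COL6A5 and COL6A6, which can stand in for COL6A3, were below 0.1 TPM. The GC content was 63.6% for COL6A1, 65.8% for COL6A2 and 53.5% for COL6A3, and the COL6A2 promoter (chr21:46097862-46098111, plus strand) is 79.6% G and C, with 4 GC boxes and a TATA box between the last of them.
COL6A2: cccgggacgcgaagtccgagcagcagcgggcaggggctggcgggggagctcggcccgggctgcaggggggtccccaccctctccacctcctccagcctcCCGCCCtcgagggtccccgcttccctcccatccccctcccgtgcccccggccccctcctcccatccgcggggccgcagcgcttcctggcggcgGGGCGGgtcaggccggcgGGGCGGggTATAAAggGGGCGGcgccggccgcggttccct

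COL7A1 (ENSG00000114270, chr3:48564073-48595329, minus strand) encodes the chain of the anchoring fibrils that fasten the basement membrane to the dermis. It had 16.3, 21.3 and 21.7 CPM in the untreated libraries and 37.0, 38.4 and 37.4 CPM in the IR libraries. Of its counts, the retained-intron transcript COL7A1-210 held 45.5%, 45.4% and 48.9% in untreated and 39.7%, 48.8% and 44.3% in IR libraries. The level and the change of the gene are thus not those of its coding transcripts alone. The gene rose by 0.92 ± 0.10 (edgeR, adjusted P = 0.000505), the groups did not overlap, and the rise was 0.56 with GC correction (adjusted P = 0.00617) and 1.16 with the length offset (adjusted P = 0.00481). Its promoter (chr3:48595330-48595579, minus strand) holds 3 GC boxes and a TATA box on the opposite strand.
COL7A1: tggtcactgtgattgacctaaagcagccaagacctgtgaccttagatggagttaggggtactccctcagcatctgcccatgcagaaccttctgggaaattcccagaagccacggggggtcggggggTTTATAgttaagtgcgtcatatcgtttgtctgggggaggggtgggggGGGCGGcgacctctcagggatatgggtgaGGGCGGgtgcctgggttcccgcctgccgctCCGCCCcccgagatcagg

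Both tested transmembrane collagens were about 2-fold higher after IR. COL13A1 (ENSG00000197467, chr10:69801880-69964275, plus strand), a collagen of cell adhesion sites and of the junction between nerve and muscle, had 15.9, 16.3 and 15.3 CPM in the untreated libraries and 28.7, 35.6 and 29.1 CPM in the IR libraries. It had the lowest adjusted P of the family, with a log2 fold change of 0.97 ± 0.10 (edgeR, adjusted P = 0.000291), and kept 0.82 with GC correction (adjusted P = 0.000513) and 0.97 with the length offset (adjusted P = 0.00748). COL17A1 (ENSG00000065618, chr10:104031286-104085880, minus strand), which anchors epithelial cells to the basement membrane as part of hemidesmosomes, had 6.09, 6.11 and 5.67 CPM in the untreated libraries and 10.6, 13.4 and 12.3 CPM in the IR libraries. Its log2 fold change was 1.03 ± 0.13 (edgeR, adjusted P = 0.000727), 1.01 with GC correction (adjusted P = 0.000502) and 0.84 with the length offset (adjusted P = 0.0478). For both genes all 3 IR libraries exceeded all 3 untreated ones, and the calls were kept whichever of the 6 libraries was left out. The epithelial markers had a summed level of 19.7 to 24.7 TPM in untreated and 22.4 to 23.5 TPM in IR libraries, and of the 5 only CDH1 was called higher (0.61 ± 0.21 on the log2 scale, edgeR, adjusted P = 0.0465, and 0.311 with the length offset), and their part in the rise of COL17A1 and COL7A1 was not tested.

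The COL13A1 promoter (chr10:69801656-69801905, plus strand) holds a TATA box far from the start and no GC box in these letters. Its window is set by the RefSeq start and reaches past the GENCODE start at 69801880. The COL17A1 promoter (chr10:104085881-104086130, minus strand) is 40.4% G and C, the lowest of those shown, and holds a TATA box, a CCAAT box and a match to the p53 decamer consensus.
COL13A1: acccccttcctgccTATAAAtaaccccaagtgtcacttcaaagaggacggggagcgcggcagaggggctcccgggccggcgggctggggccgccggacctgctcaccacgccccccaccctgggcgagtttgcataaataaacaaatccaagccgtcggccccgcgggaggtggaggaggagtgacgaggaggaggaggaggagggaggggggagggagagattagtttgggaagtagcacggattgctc
COL17A1: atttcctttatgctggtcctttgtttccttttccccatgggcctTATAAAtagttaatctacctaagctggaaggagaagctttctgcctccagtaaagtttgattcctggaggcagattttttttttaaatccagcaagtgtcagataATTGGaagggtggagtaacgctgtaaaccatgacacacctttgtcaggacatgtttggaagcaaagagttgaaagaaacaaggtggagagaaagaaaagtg

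COL18A1 (ENSG00000182871, chr21:45405165-45513720, plus strand), a multiplexin of basement membranes from which endostatin is cleaved, had 4.50, 6.24 and 6.40 CPM in the untreated libraries and 9.00, 8.60 and 11.7 CPM in the IR libraries. It rose by 0.78 ± 0.18 without overlap (edgeR, adjusted P = 0.00922), had 0.32 with GC correction (adjusted P = 0.126) and 0.74 with the length offset (adjusted P = 0.118), neither of them called, and shares exon sequence with SLC19A1 on the other strand. COL26A1, a collagen known from testis and ovary, had 6.20, 6.20 and 7.28 CPM in the untreated libraries and 4.84, 6.75 and 7.31 CPM in the IR libraries, with overlapping groups and a log2 fold change of -0.05 ± 0.17 (edgeR, adjusted P = 0.856).

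The other 7 tested low genes, COL1A2, COL4A6, COL9A3, COL15A1, COL20A1, COL24A1 and COL28A1, were not called, and their standard errors were between 0.26 and 0.55. Exons of COL9A3 overlap those of TCFL5 on the other strand, and reads of such partners cannot be told apart without strand. COL20A1 had the largest value, 0.95 ± 0.55 on the log2 scale (edgeR, adjusted P = 0.213), with 0.0549, 0.624 and 0.293 CPM in the untreated libraries and 0.678, 0.490 and 0.753 CPM in the IR libraries and overlapping groups. The 11 genes that did not enter the test had at most 26 estimated counts and 0.465 TPM in any library. These were COL2A1, the chain of cartilage fibrils, COL10A1, a marker of hypertrophic chondrocytes, the transmembrane genes COL23A1 and COL25A1, the FACITs COL9A1, COL14A1 and COL21A1, and COL4A3, COL6A5, COL6A6 and COL8A2. At this depth a change in these genes was not detectable.

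Because partner chains are built into the same trimer, the ratio of their estimated counts was compared between groups, for pairs chosen after their values were seen. The log2 ratio of COL5A1 to COL5A2 was 0.00, 0.05 and -0.12 in untreated and 0.58, 0.55 and 0.81 in IR libraries, a difference of 0.67 (exact two-sided permutation test, P = 0.1). In TPM the order of the pair turned, with COL5A1 at 0.737 to 0.775 of COL5A2 in untreated and at 1.08 to 1.48 in IR libraries. For COL4A2 to COL4A1 the log2 ratio was 0.69, 0.68 and 0.70 in untreated and 0.84, 0.86 and 0.99 in IR libraries, a difference of 0.21. The difference was 0.52 for COL6A2 to COL6A3, 0.36 for COL6A1 to COL6A3 and 0.71 for COL11A2 to COL11A1, and in these 5 of the 7 pairs compared the groups did not overlap (exact permutation P = 0.1 each, the smallest possible). Because the pairs were chosen by sight of their values and no share over all gene pairs was computed, this count and these P values are descriptions only. In each of these 5 pairs the first gene was the richer in G and C, and with GC correction the differences were 0.41, 0.03, 0.17, 0.07 and 0.28 in the same order. The ratio of COL6A2 to COL6A1, which have similar GC content, differed by 0.16 and overlapped between groups (exact permutation P = 0.2). The ratio of COL1A1 to COL1A2, whose first gene is also the richer in G and C (61.9% against 49.6%), had a difference of -0.23, with overlap between groups (exact permutation P = 0.4), and of -0.50 with GC correction.

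The share of each transcript within its gene was tested for 25 collagen genes with at least 2 transcripts kept. Only COL12A1 was called (edgeR diffSpliceDGE, adjusted P = 0.000147), whereas 2.67% of 10666 genes were called. COL12A1-201, the full-length form with 66 exons (chr6:75084326-75206053), held 88.3%, 81.7% and 85.1% of the counts of the gene in untreated and 82.5%, 68.2% and 58.8% in IR libraries. The retained-intron transcript COL12A1-212, which has 4 exons at the 3′ end of the gene (chr6:75084366-75090459), was listed at 0 counts in all untreated libraries and at 321, 923 and 2395 counts in IR libraries. The shorter coding transcript COL12A1-205, with 22 exons at the same end (chr6:75084326-75119473), held 1.32%, 1.01% and 3.82% in untreated and 8.29%, 9.41% and 13.6% in IR libraries, and was not called on its own (adjusted P = 0.723). COL12A1-202, which was not called on its own either, held 0% to 1.58% in untreated and 0%, 5.23% and 10.9% in IR libraries. The transcripts share sequence, so that the split of reads between them is an estimate. Counted per length, COL12A1 was at 147, 177 and 155 TPM in the untreated libraries and 166, 165 and 144 TPM in the IR libraries, and the groups overlapped, while its CPM was lower in all IR libraries.

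**Figure D4:**
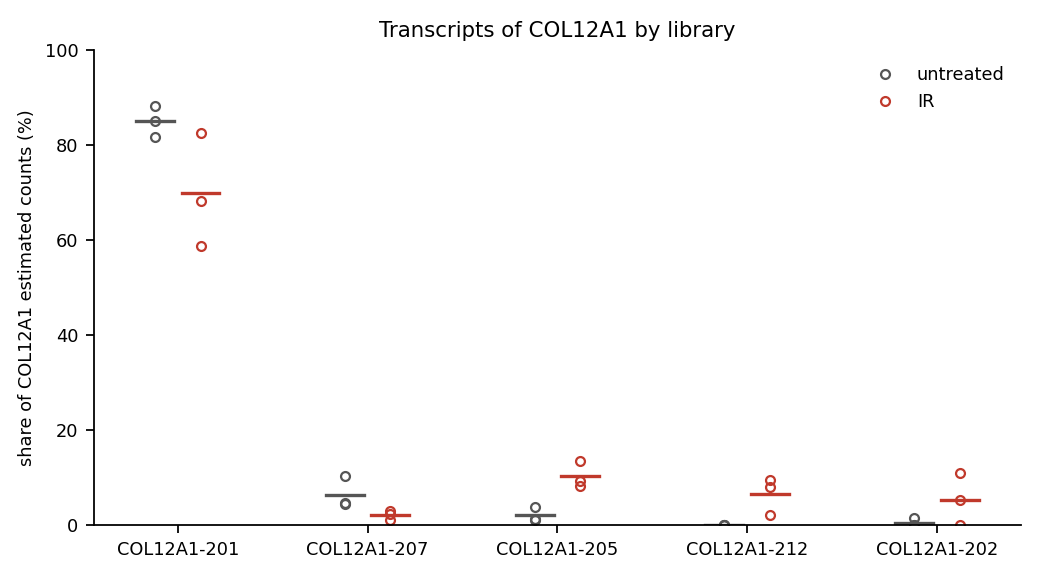
Share of the estimated counts of COL12A1 held by 5 of its transcripts in each library (circles; bars are group means) for untreated (grey) and IR (red) libraries. The full-length COL12A1-201 lies lower in the IR group on average, with 1 IR library inside the untreated range, and COL12A1-205 and COL12A1-212 lie above every untreated library.

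The genes that modify, export, process, bind and degrade collagen were described from lists of 91 genes, of which 82 were tested. Of these, 27 were higher (32.9%, against 15.5% of all genes) and 11 were lower (13.4%, against 14.5%). With GC correction 16 were higher (19.5%, against 11.7%) and 9 lower (11%, against 12.6%), and with the length offset 7 were higher (8.54%, against 5.84%) and 4 lower (4.88%, against 6.11%). Chain modification and folding had 11 higher and 0 lower of 19 genes (57.9% and 0%), with a median log2 fold change of 0.22, or 0.15 with GC correction. With GC correction 8 were higher, of which P4HB, P3H1, CRTAP, PPIB and FKBP10 were among the 11 and P4HA1, PLOD2 and FKBP14 were not, and SERPINH1 was lower. With the length offset 3 were higher, PPIB, FKBP10 and P3H3. FKBP10, a folding enzyme of the endoplasmic reticulum, went from 228, 236 and 222 CPM to 297, 309 and 326 CPM (0.44 ± 0.06, edgeR, adjusted P = 0.00133). P3H1, a prolyl 3-hydroxylase, rose by 0.42 ± 0.08 (edgeR, adjusted P = 0.00415) and its relative P3H3 by 0.40 ± 0.08 (edgeR, adjusted P = 0.00549). None of these 3 genes overlapped between groups, with GC correction P3H3 was no longer called, and with the length offset P3H1 was not (adjusted P = 0.0604). Procollagen export had 0 higher and 2 lower (20%) of 10 genes, SEC23A, a coat protein of transport vesicles (-0.28 ± 0.07, edgeR, adjusted P = 0.0137), and CREB3L2, a transcription factor of secretory genes (-0.56 ± 0.18, edgeR, adjusted P = 0.0420). With GC correction SEC23A was not called (-0.12, adjusted P = 0.197), while CREB3L2 and CREB3L1 were lower, and with the length offset 0 genes were called (adjusted P = 0.0766 for SEC23A and 0.111 for CREB3L2).

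Propeptide processing and cross-linking had 7 higher (50%) and 2 lower (14.3%) of 14 genes, 3 higher and 0 lower with GC correction, and 1 higher and 1 lower with the length offset. TGM2, a transglutaminase, rose from 61.4, 70.8 and 57.8 CPM to 78.2, 83.6 and 97.4 CPM (0.45 ± 0.10, edgeR, adjusted P = 0.00893), and PCOLCE2, an enhancer of C-propeptide cleavage, rose by 0.32 ± 0.07 (edgeR, adjusted P = 0.00913). Of the N-propeptide proteases, ADAMTS14 rose from a low level by 1.47 ± 0.35 (edgeR, adjusted P = 0.0112), and ADAMTS3 was lower (-0.29 ± 0.07, edgeR, adjusted P = 0.0143). LOX, the lysyl oxidase that starts cross-linking, was lower as well, with 80.2, 83.3 and 81.7 CPM in the untreated libraries and 71.3, 70.0 and 64.8 CPM in the IR libraries (-0.25 ± 0.07, edgeR, adjusted P = 0.0168). With GC correction ADAMTS14, PCOLCE2 and TGM2 were still called, and ADAMTS3 and LOX were not. With the length offset ADAMTS14 and LOX were called, and TGM2 (adjusted P = 0.111), PCOLCE2 (adjusted P = 0.0601) and ADAMTS3 (adjusted P = 0.0717) were not.

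Among 7 tested collagen-binding matrix genes, LUM, which encodes the fibril-binding proteoglycan lumican, rose by 0.51 ± 0.09 (edgeR, adjusted P = 0.00274) and FBLN1, a basement membrane glycoprotein, by 0.24 ± 0.07 (edgeR, adjusted P = 0.0197), and 0 were lower. Of 10 tested receptors, ITGA2, an integrin chain that binds type I collagen (0.34 ± 0.11, edgeR, adjusted P = 0.0428), and the uptake receptor MRC2 (0.36 ± 0.07, adjusted P = 0.00547) were higher. ITGA1, which prefers type IV collagen (-0.32 ± 0.11, edgeR, adjusted P = 0.0496), and ADGRG1, a receptor of type III collagen (-0.39 ± 0.10, adjusted P = 0.0168), were lower. Of 11 tested proteases and inhibitors, TIMP1, an inhibitor of matrix metalloproteinases, rose from 252, 238 and 205 CPM to 317, 373 and 323 CPM (0.54 ± 0.09, edgeR, adjusted P = 0.00247), as did the proteases MMP14 (0.39 ± 0.06, adjusted P = 0.00234) and MMP9 (0.80 ± 0.19, adjusted P = 0.0127), and TIMP3 (-0.27 ± 0.07, adjusted P = 0.0141) and MMP16 (-0.29 ± 0.08, adjusted P = 0.0254) were lower. With GC correction LUM, ITGA2, ADGRG1, TIMP1, MMP14 and TIMP3 kept their calls, and with the length offset ITGA1, TIMP1, MMP14, MMP9 and MMP16 did. The shares of tested genes were 28.6% higher for the matrix genes, 20% higher and 20% lower for the receptors, and 27.3% higher and 18.2% lower for the proteases and inhibitors.

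TGF-beta signalling is a classical inducer of fibrillar collagen genes. Of its 11 genes, the ligand TGFB1 (0.36 ± 0.06, edgeR, adjusted P = 0.00344) and the target CCN2 (0.28 ± 0.06, adjusted P = 0.00875) were higher. The ligand TGFB3 (-0.48 ± 0.08, edgeR, adjusted P = 0.00191) and the signal transducers SMAD4 (-0.31 ± 0.07, adjusted P = 0.0117) and SMAD2 (-0.19 ± 0.06, adjusted P = 0.0459) were lower. TGFB3 went from 25.5, 27.4 and 25.8 CPM to 18.8, 19.3 and 18.2 CPM. These were 18.2% and 27.3% of the list. With GC correction CCN2 and TGFB3 kept their calls, and with the length offset SMAD4 did.

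**Figure D5:**
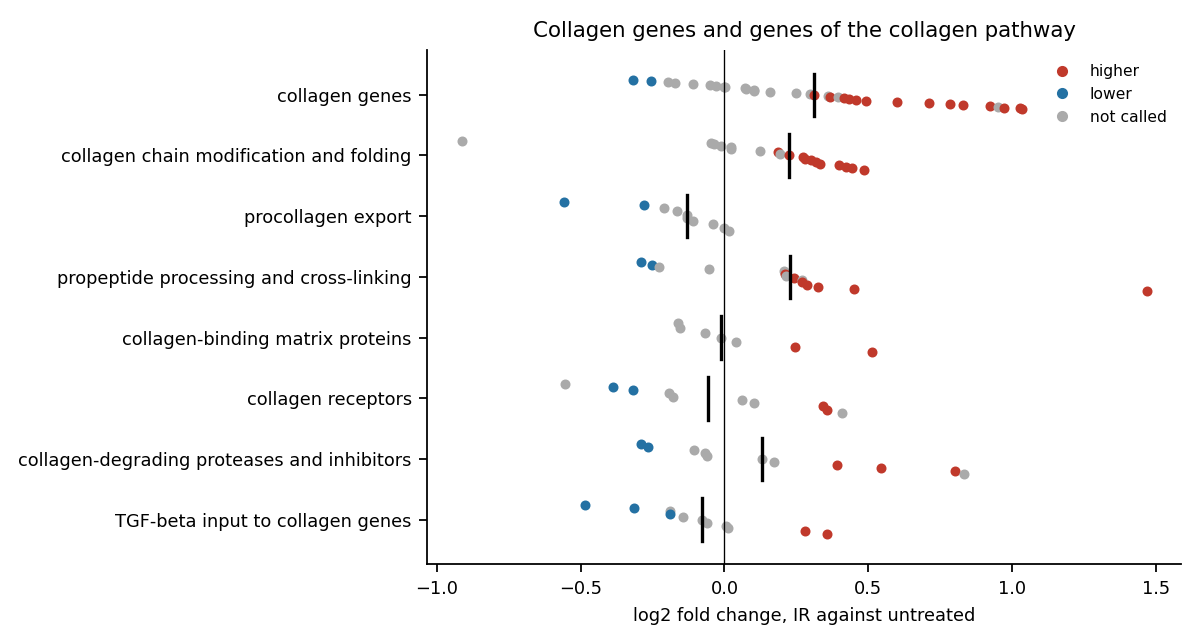
Log2 fold change of IR against untreated for the tested collagen genes and the tested genes of 7 lists of the collagen pathway (points, coloured by call at an edgeR adjusted P under 0.05), with a black bar at the median of each list. The median is 0.31 for collagen genes, 0.22 for chain modification and folding, and -0.13 for procollagen export. With GC correction, which is not drawn here, these medians were 0.12, 0.15 and -0.03 in the same order.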

How the data were processed

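RNA-seq of 3 untreated U-2 OS samples and 3 collected 24 h after 4 Gy of IR was grouped by the sample labels. After adaptor removal with fastp, the authors ran kallisto against GENCODE release 37 (GRCh38). Each deposited file lists, by transcript, a raw estimated count, a TPM value that the authors' software scaled for length and depth, and the length and effective length in bases. By the labels the RNA was poly(A) and the kit an mRNA kit, by the methods it was a total RNA kit, and the use of strand in counting is not given in the sources used here.

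Identifiers were looked up in GENCODE release 44 for symbols, coordinates and GC content, and 158711 of 161171 transcripts matched, holding 98.2% to 98.5% of the counts of a library. The estimated counts of the transcripts of a gene were added up and rounded. After filterByExpr and TMM scaling, the quasi-likelihood test of edgeR (version 4.0.16, with limma 3.58.1 and R 4.3.3) was run with Benjamini–Hochberg adjustment over all tested genes and a threshold of 0.05. TPM values were summed per gene. GC correction removed a lowess trend (span 0.3) of each library as an offset, and the length offset used the deposited effective lengths. In untreated replicate 1 the effective length exceeded the length for 28.2% of transcripts, so this offset is not one for length alone. Transcript usage was tested by diffSpliceDGE with Simes P values, and count ratios of chains used a pseudocount of 0.5. Promoters came from RefSeq (GRCh38.p14). Scripts were tested on simulated data.

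Members and lists were chosen with earlier results of these data known. Values in every library were given for expressed or called collagen genes, and from each other list up to 3 called genes of lowest P in each direction with a mean of at least 10 counts. Alternatives were the filter, DESeq2 1.42.0, the corrections above, a replicate block and leaving out each library. Libraries of a group differed by more than sampling noise (chi-square per gene of 3.445 or more). Within the IR group it was 5.918 for replicates 1 and 2, 29.08 for replicates 1 and 3, and 32.23 for replicates 2 and 3. Among untreated pairs it was at most 9.157. The scRNA-seq of the study was not analysed here, and 1 list of cell type markers is not reported here.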

Additional observations from a re-analysis of the deposited data

How the results depend on the processing

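At 14 collagen genes higher and 2 lower, no filter, at least 10 counts in every library, DESeq2's size factors and DESeq2's Wald test gave 13 or 14 higher and 2 or 3 lower. GC correction gave 6 higher, and the length offset 0 lower. Leaving out each library gave 13 higher each time and 0 to 3 lower, with 0 without untreated replicate 2 and 1 without untreated replicate 1, untreated replicate 3 or IR replicate 2. For the pathway lists, with 27 higher and 11 lower, GC correction gave 16 higher, the length offset 7 higher and 4 lower, and leaving out each library 17 to 25 higher and 3 to 13 lower, with 17 higher and 3 lower without untreated replicate 1, and 3, 7 and 4 lower without untreated replicate 2, untreated replicate 3 and IR replicate 2. The cause of these differences was not tested for the left-out libraries, the GC correction or the length offset. The 25 expressed genes were 28 at a minimum of 0.5 TPM and 23 at 2 TPM. Transcript usage called 1 or 2 collagen genes when each library was left out, 2 of them without untreated replicate 3, IR replicate 2 or IR replicate 3.

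Deviations of same-numbered libraries from their group means correlated at -0.02, 0.01 and -0.05. Deviations from a mean of 3 libraries depend on one another, so these values cannot decide whether samples were paired. The sources used here do not state a pairing. With the replicate block, 13 collagen genes were higher and 1 was lower. With the replicate block and GC correction 5 were higher and 1 was lower, with 14 pathway genes higher and 7 lower. The share of all tested genes called was computed only without correction, with GC correction and with the length offset. The counts of the other settings are thus descriptions only. For log2 fold changes that turned, COL1A1 was -0.20 with GC correction and -0.19 with the replicate block added, COL5A3 was -0.14 and -0.13, and COL16A1 was -0.0036 and -0.0046. With the length offset COL4A5 was -0.047, COL12A1 was 0.038 and COL26A1 was 0.059. COL11A1 was -0.0034 with DESeq2's size factors, -0.0028 with the Wald test and -0.00088 with the replicate block, and COL11A1 ranged from -0.078 to 0.10 and COL26A1 from -0.19 to 0.089 when each library was left out. The cause of these turns was not tested. The 11 collagen genes with at most 26 counts in a library were beyond the reach of the test at this depth.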
